A study of Homo sapiens with 4 samples.

Results

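The genes described here carry fatty acids into cells, hold them in the cytosol and couple them to coenzyme A. They were chosen by name as 10 of the 43622 genes in each table: the surface receptor CD36, the binding proteins FABP4 and FABP5, the long-chain acyl-CoA synthetases ACSL1, ACSL3, ACSL4 and ACSL5, and the transport proteins SLC27A2, SLC27A3 and SLC27A4. Messenger RNA was sequenced from A549 spheroids, A549 adherent cells, H1993 spheroids and a library labelled H1993 adherent, with 1 library for each. A549 and H1993 are human lung adenocarcinoma lines. Adherent cells grow attached to plastic, and spheroids are cell clusters grown here as cultures of cancer stem cells. The design text names triacylglycerol synthesis as what the cultures were compared for. It also mentions inhibitors and shRNA, which the labels assign to none of these 4 libraries.

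A long-chain fatty acid that reaches a cell is bound at the surface, in many tissues by CD36, and is carried through the cytosol by small fatty acid binding proteins. It becomes useful to most pathways only as an acyl-CoA thioester, which ACSL enzymes make. SLC27A proteins, also called fatty acid transport proteins, make acyl-CoA as well, and this step traps the fatty acid inside. Acyl-CoA then enters triacylglycerol, phospholipid or oxidation, so these genes stand upstream of both lipid storage and its use. In bulk RNA, fewer cells that express a gene and less of its RNA per cell cannot be told apart.

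The libraries held between 15331121 and 17681746 exonic reads, so that 3 reads corresponded to between 0.173 and 0.196 CPM (read counts scaled to library size and composition). Each group is 1 library and has no replicate check. Folds are log2 values of scaled exon reads with 95% intervals that cover counting error only. A gene was called higher or lower where it was among 15273 genes kept by a filter on low counts, at least 2-fold apart and with an interval that excludes no change. The library labelled H1993 adherent resembled A549 adherent cells (Pearson r = 0.947 over log2 CPM of the kept genes) more than it did H1993 spheroids (r = 0.846). These values run over genes, which are no independent replicates. An H1993 culture fold may therefore also hold a difference between lines, and each is given for the libraries as labelled. Among lung epithelial markers the keratins KRT8, KRT18 and KRT7 had between 10297 and 82350 reads in each library. The surfactant genes SFTPB and SFTPC had at most 2 reads in any library, and NKX2-1, the lung lineage factor, at most 13, so these were at or near 0. In the edgeR test over both lines described below, NKX2-1 had a log2 estimate of 6.67, H1993 over A549 (adjusted p 0.599). Of the 9 lung epithelial markers 7 were kept, among them EPCAM, CDH1 and NAPSA. In A549 spheroids 0 of the list were called higher and 2 lower, and in H1993 as labelled 4 higher and 1 lower. The shares of all kept genes follow below.

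The culture folds of these genes pointed both ways. In A549, 3 of the 9 kept were called higher in spheroids (CD36, ACSL4 and ACSL5) and 2 lower (FABP5 and SLC27A2), while 12.4% of all kept genes were called higher and 10.3% lower. In the H1993 libraries as labelled, 5 of the 9 were called higher (CD36, FABP5, ACSL1, SLC27A3 and SLC27A4) and 1 lower (SLC27A2), against 17.0% higher and 18.0% lower among all kept genes. CD36 was called higher, and SLC27A2 lower, in A549 and in H1993 as labelled. FABP4, the tenth gene, was not kept by the filter because a single library held nearly all of its reads, and it is described from its counts.

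**Figure D1:**
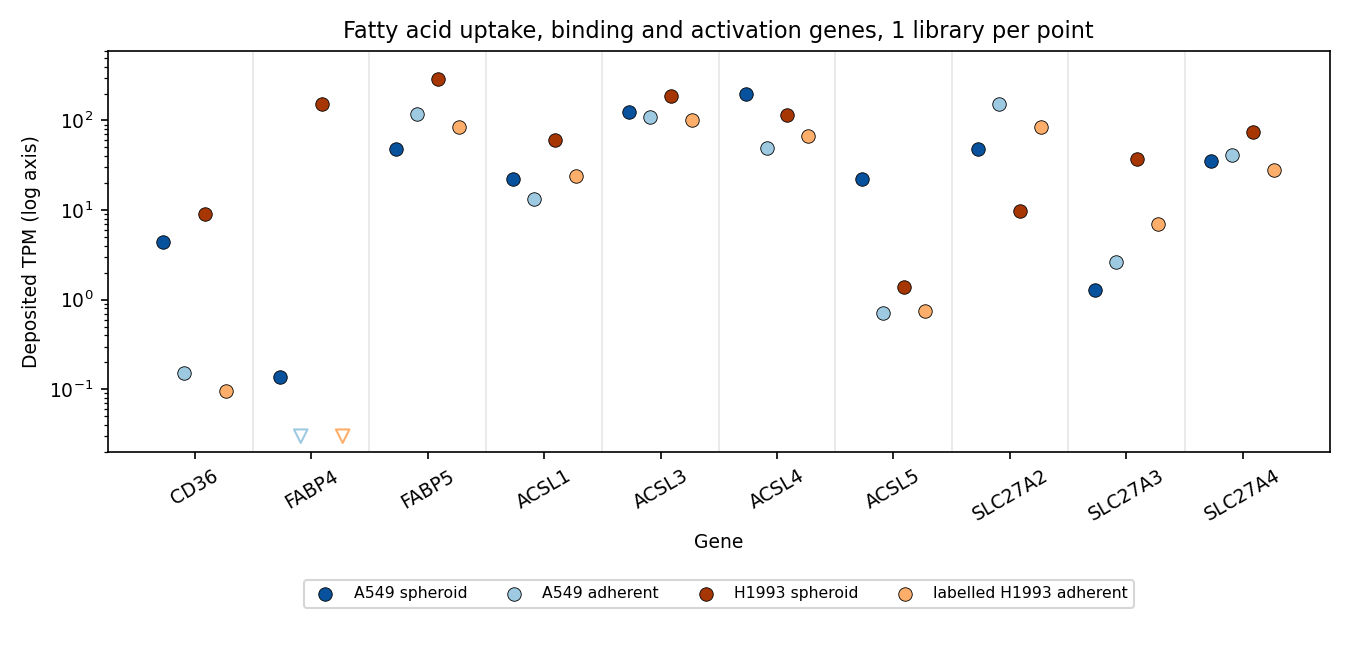
Deposited TPM (a share of transcripts per length, log axis) of the 10 genes, 1 point per library; open triangles at the bottom mark the 2 libraries with 0 FABP4 reads. CD36 is higher in both spheroid libraries than in both libraries labelled adherent. ACSL5 is highest in A549 spheroids and FABP4 in H1993 spheroids.

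CD36 is a scavenger receptor that takes up long-chain fatty acids and oxidised lipoproteins (ENSG00000135218, chromosome 7, 80369575 to 80679277, plus strand, hg38). It had 229 reads in A549 spheroids against 7 in A549 adherent cells, and 395 in H1993 spheroids against 5 in the library labelled H1993 adherent. Both spheroid libraries stood above both libraries labelled adherent, which were near the floor. The log2 fold was 4.63 (3.90 to 6.30) in A549, the 54th highest of the kept genes, and 5.98 (5.25 to 8.12) in H1993 as labelled, the 26th highest. Even so its spheroid level was modest, at 4.36 TPM in A549 and 9.15 TPM in H1993. H1993 spheroids exceeded A549 spheroids by a log2 fold of 0.90 (0.67 to 1.15), short of the 2-fold limit. By exon-exon junction reads alone, which a spliced transcript gives, CD36 had 77 in A549 spheroids against 5 in A549 adherent cells, and 134 in H1993 spheroids against 2 in the library labelled H1993 adherent.

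The genes around CD36 lay near 0. The median log2 fold of the 25 kept genes on each side was -0.17 in A549 and -0.22 in H1993, and CD36 lay above all 50 of them in both. SEMA3C, a secreted guidance factor and the next coding gene downstream, had 2787 reads in A549 spheroids against 3569 in A549 adherent cells, and 2380 in H1993 spheroids against 4814 in the library labelled H1993 adherent. GNAT3, a taste G protein that lies inside the CD36 model on the other strand, had 0 reads in all 4 libraries.

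The promoter windows of the 3 genes with the farthest culture folds outside the binding proteins are shown because the study's title ties this metabolism to YAP and TEAD, of which TEAD binds DNA at GGAATG. Each window runs from 250 bases before to 50 bases after a start site, from RefSeq on GRCh38.p14, and is the first listed for its gene. The CD36 window is chr7:80601957-80602256, that of ACSL5 chr10:112375018-112375317 and that of SLC27A2 chr15:50181946-50182245, all on the plus strand. Capitals mark GGAATG on either strand and AGGTCA, the half-site of nuclear receptors such as the PPARs.
CD36: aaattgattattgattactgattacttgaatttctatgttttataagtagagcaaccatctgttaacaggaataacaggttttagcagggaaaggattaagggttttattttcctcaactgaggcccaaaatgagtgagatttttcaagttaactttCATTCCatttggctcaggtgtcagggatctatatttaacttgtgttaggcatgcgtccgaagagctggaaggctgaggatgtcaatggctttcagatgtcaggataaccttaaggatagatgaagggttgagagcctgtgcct
ACSL5: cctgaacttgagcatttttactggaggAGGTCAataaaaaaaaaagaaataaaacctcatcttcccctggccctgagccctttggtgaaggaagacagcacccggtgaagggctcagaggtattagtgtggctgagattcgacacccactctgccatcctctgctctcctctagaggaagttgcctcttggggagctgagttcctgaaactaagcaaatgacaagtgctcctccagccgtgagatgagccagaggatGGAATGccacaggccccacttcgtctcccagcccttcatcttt
SLC27A2: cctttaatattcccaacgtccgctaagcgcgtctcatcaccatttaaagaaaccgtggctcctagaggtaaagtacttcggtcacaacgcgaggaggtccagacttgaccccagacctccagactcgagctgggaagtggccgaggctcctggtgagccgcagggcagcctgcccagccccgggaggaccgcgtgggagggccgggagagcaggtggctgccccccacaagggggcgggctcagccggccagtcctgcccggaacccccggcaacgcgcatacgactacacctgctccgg

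In the CD36 window, GGAATG stands on the minus strand 93 bases before the start. In the ACSL5 window it begins at transcribed base 8, and AGGTCA lies 223 bases before the start. The SLC27A2 window held neither. RefSeq windows for 8 of the 10 genes were searched, 18 windows in all, of which 6 belong to CD36 and 5 to ACSL1, and some of these overlap. FABP4 and FABP5, both on chromosome 8, were left out of the search, so the member shares cover the other 8 genes. The shares of all windows were taken without that exclusion. GGAATG occurred in 5 of the 18 windows (27.8%), from SLC27A3, ACSL3, ACSL1, CD36 and ACSL5, against 14.0% of all 35116 windows. AGGTCA occurred in 1 of 18 (5.56%), against 13.8%. Neither 2 half-sites repeated with 1 base between them, the classical PPAR element, nor the E-box CACGTG was found in the 18 windows, and they occur in 0.0228% and 7.26% of all windows. The files do not say which start site was used, and a match is a string of letters, not a site shown to be bound.

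FABP5, the epidermal-type binding protein that can deliver fatty acids to PPAR delta (ENSG00000164687, chromosome 8, 81280363 to 81284777, plus strand), lay on opposite sides in the 2 pairs. It had 515 reads in A549 spheroids against 1121 in A549 adherent cells, and 2604 in H1993 spheroids against 886 in the library labelled H1993 adherent. A549 spheroids were the lowest of the 4 libraries and H1993 spheroids the highest. The log2 fold was -1.18 (-1.34 to -1.03) in A549 and 1.74 (1.63 to 1.85) in H1993 as labelled. The difference between these folds was not tested, since each group is 1 library. Between the spheroid libraries, H1993 exceeded A549 by 2.45 (2.32 to 2.60), and between the libraries labelled adherent the H1993 one was lower by a fold of -0.47 (-0.60 to -0.34). Of the FABP5 exonic reads, 99.8% to 100% in each library were counted as unique. The human genome holds processed copies of FABP5, whose part in these counts was not tested. Its junction reads gave log2 ratios of -1.21 in A549 and 1.78 in H1993.

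FABP4, the binding protein of fat cells and macrophages (ENSG00000170323, chromosome 8, 81478419 to 81483263, minus strand), was abundant in 1 library. It had 1 read in A549 spheroids against 0 in A549 adherent cells, and 905 in H1993 spheroids against 0 in the library labelled H1993 adherent. Against a floor of 3 reads in that last library it was 342.6-fold higher in H1993 spheroids, a ratio to that floor and not a lower limit. Over the single read of A549 spheroids its log2 fold was 8.32 (7.46 to 15.2). Its 152 TPM ranked 1000th among genes in H1993 spheroids, where 447 of the reads crossed exon junctions. FABP4 and FABP5 lie in a cluster of binding protein genes, and the other members beside them were nearly silent in H1993 spheroids: PMP2 and FABP9 had 0 reads there and FABP12 had 1. Farther out, PAG1, an adaptor that restrains Src family kinases, had 145 reads in A549 spheroids against 11 in A549 adherent cells, and 5704 in H1993 spheroids against 52 in the library labelled H1993 adherent. ZNF704, a zinc finger gene, had 367 reads in A549 spheroids against 867 in A549 adherent cells, and 1946 in H1993 spheroids against 67 in the library labelled H1993 adherent. FABP4 lay above all 50 kept neighbours in the H1993 pair, whose median log2 fold was 0.51. Both flanking genes were named after their values were seen.

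The other 8 genes of the binding protein family gave few reads. FABP6, the ileal bile acid carrier, had 15 reads in A549 spheroids against 13 in A549 adherent cells, and 0 in H1993 spheroids against 3 in the library labelled H1993 adherent. The remaining 7 had at most 1 read in any library. FABP5 therefore made up 94.6% of the family's summed TPM in A549 spheroids and 98.0% in A549 adherent cells. In H1993 spheroids FABP5 took 65.8% and FABP4 34.0%, against 99.4% and 0% in the library labelled H1993 adherent.

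FABP4 and CD36 are also marks of other cell types, so the defining genes of those types were read in the same libraries. Of 6 adipocyte markers, ADIPOQ, CIDEA and RETN had 0 reads in all 4 libraries, and the summed TPM of the list lay between 1.79 and 8.37. PLIN1, the coat protein of fat-cell lipid droplets, had 154 reads in A549 spheroids against 5 in A549 adherent cells, and 17 in H1993 spheroids against 31 in the library labelled H1993 adherent. LIPE, hormone-sensitive lipase, had 9 reads in A549 spheroids against 36 in A549 adherent cells, and 49 in H1993 spheroids against 37 in the library labelled H1993 adherent. LEP had 4 reads in A549 spheroids and 0 in the other 3 libraries. Between the spheroid libraries PLIN1 was called lower in H1993 (log2 fold -2.93) and LIPE higher (2.32). Of 6 endothelial markers, VWF, KDR, TEK and CLDN5 had at most 3 reads in any library and the summed TPM lay between 0.50 and 3.34. PECAM1, an endothelial and leukocyte adhesion protein, had 129 reads in A549 spheroids against 2 in A549 adherent cells, and 36 in H1993 spheroids against 7 in the library labelled H1993 adherent. CDH5, the cadherin of vessel walls, had 0 reads in A549 spheroids against 7 in A549 adherent cells, and 36 in H1993 spheroids against 37 in the library labelled H1993 adherent. Of 7 macrophage and monocyte markers, AIF1 had 0 reads in all libraries, and MARCO and MSR1 had 0 in both H1993 libraries and at most 4 in A549. PTPRC, the common leukocyte antigen, had 45 reads and CSF1R, the receptor for a macrophage growth factor, 41 in H1993 spheroids, against 0 and 1 in the library labelled H1993 adherent, and at most 1 in either A549 library. CD68, a lysosomal protein used as a macrophage marker, gave most of that list's summed TPM of 34.6 to 137, with 1492 reads in A549 spheroids against 259 in A549 adherent cells. CD14, the monocyte lipopolysaccharide receptor, lay the other way, with 53 reads in A549 spheroids against 74 in A549 adherent cells, and 29 in H1993 spheroids against 214 in the library labelled H1993 adherent. CD68 and CD14 were the 2 kept genes of that list. CD68 was called higher in spheroids in A549 and in H1993 as labelled, and CD14 lower in H1993 as labelled only. Of 5 platelet and megakaryocyte markers, GP9 had 0 reads in all libraries and GP1BA at most 3. The summed TPM of that list was 21.9 in A549 spheroids against 11.6 in A549 adherent cells, and 8.61 in H1993 spheroids against 11.4 in the library labelled H1993 adherent. PF4, a platelet chemokine, was called higher in A549 spheroids (1.38) and ITGA2B, a platelet integrin chain, lower (-1.73), and 0 of the list were called in the H1993 pair. Between the spheroid libraries ITGA2B was called higher in H1993 (1.81), and PF4 and the platelet protein PPBP lower, the second with 0 reads in H1993 spheroids against 26 in A549 spheroids. Among all kept genes, 12.4% were called higher and 10.3% lower in A549, and 17.0% and 18.0% in H1993 as labelled. Between the spheroid libraries 18.0% were called higher and 19.1% lower in H1993. What part the expressed markers have in the FABP4 and CD36 values was not tested.

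ACSL4 prefers arachidonate and other polyunsaturated fatty acids and sets how readily membranes peroxidise in ferroptosis (ENSG00000068366, chromosome X, 109624244 to 109733403, minus strand). It had 6502 reads in A549 spheroids against 1465 in A549 adherent cells, and 3151 in H1993 spheroids against 2176 in the library labelled H1993 adherent. A549 spheroids stood above the other 3 libraries. The log2 fold was 2.09 (2.01 to 2.17) in A549 and 0.72 (0.64 to 0.80) in H1993 as labelled, the second under 2-fold.

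ACSL5, a synthetase of mitochondria and endoplasmic reticulum that is abundant in gut epithelium (ENSG00000197142, chromosome 10, 112374018 to 112428380, plus strand), was high in 1 library. It had 483 reads in A549 spheroids against 14 in A549 adherent cells, and 25 in H1993 spheroids against 16 in the library labelled H1993 adherent. The log2 fold in A549 was 4.86 (4.28 to 5.93), the 44th highest of the kept genes. In H1993 as labelled it was 0.75 with an interval from -0.14 to 1.83, so by exon reads no difference was detectable at this depth. H1993 spheroids lay below A549 spheroids by a log2 fold of -4.05 (-4.80 to -3.57), with ACSL5 the 176th lowest of the kept genes. ACSL5 overlaps 3953 bases of ZDHHC6, a palmitoyltransferase on the other strand, and whether counting used strand is not given in the sources used here. ZDHHC6 had 509 reads in A549 spheroids against 729 in A549 adherent cells, so it lay the other way from ACSL5. The ACSL5 junction reads, 261 in A549 spheroids against 8 in A549 adherent cells, gave a log2 ratio of 4.96 (3.96 to 6.19). H1993 spheroids had 13 against 3 in the library labelled H1993 adherent. From these few reads the log2 ratio was 2.30 (0.44 to 4.75), an interval that excludes no change.

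ACSL1, the main synthetase of fat, heart and liver (ENSG00000151726, chromosome 4, 184755595 to 184826818, minus strand), stood above 0 in both culture folds. It had 730 reads in A549 spheroids against 384 in A549 adherent cells, and 1635 in H1993 spheroids against 769 in the library labelled H1993 adherent. Its log2 folds were 0.86 (0.68 to 1.05) in A549, under 2-fold, and 1.27 (1.15 to 1.40) in H1993 as labelled. The H1993 library was also the higher at matched culture label, by 1.28 (1.15 to 1.41) over A549 spheroids and, in the library labelled adherent, by 0.87 (0.69 to 1.05) over A549 adherent cells. ACSL3, which works on endoplasmic reticulum and on forming lipid droplets (ENSG00000123983, chromosome 2, 222860934 to 222944639, plus strand), had the smallest A549 culture fold of the ACSL genes. It had 4709 reads in A549 spheroids against 3687 in A549 adherent cells, and 5820 in H1993 spheroids against 3716 in the library labelled H1993 adherent. Its log2 folds were 0.29 (0.23 to 0.35) and 0.83 (0.77 to 0.89), both under 2-fold.

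The most abundant ACSL gene differed between the A549 libraries. In TPM, a scale per length on which genes can be compared, the 5 ACSL genes summed to 365 in A549 spheroids against 174 in A549 adherent cells, and to 366 in H1993 spheroids against 192 in the library labelled H1993 adherent. ACSL4 took 53.5% of the sum in A549 spheroids and ACSL3 34.3%, against 28.5% for ACSL4 and 63.5% for ACSL3 in A549 adherent cells. In the H1993 pair the shares stayed near each other, with ACSL3 at 51.5% in spheroids and 52.4% in the library labelled adherent, and ACSL4 at 31.5% in spheroids and 34.7% in the library labelled adherent. ACSL5 took 6.02% in A549 spheroids and at most 0.41% in the other 3 libraries. ACSL6, the brain and blood-cell synthetase, had at most 6 reads in any library.

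**Figure D2:**
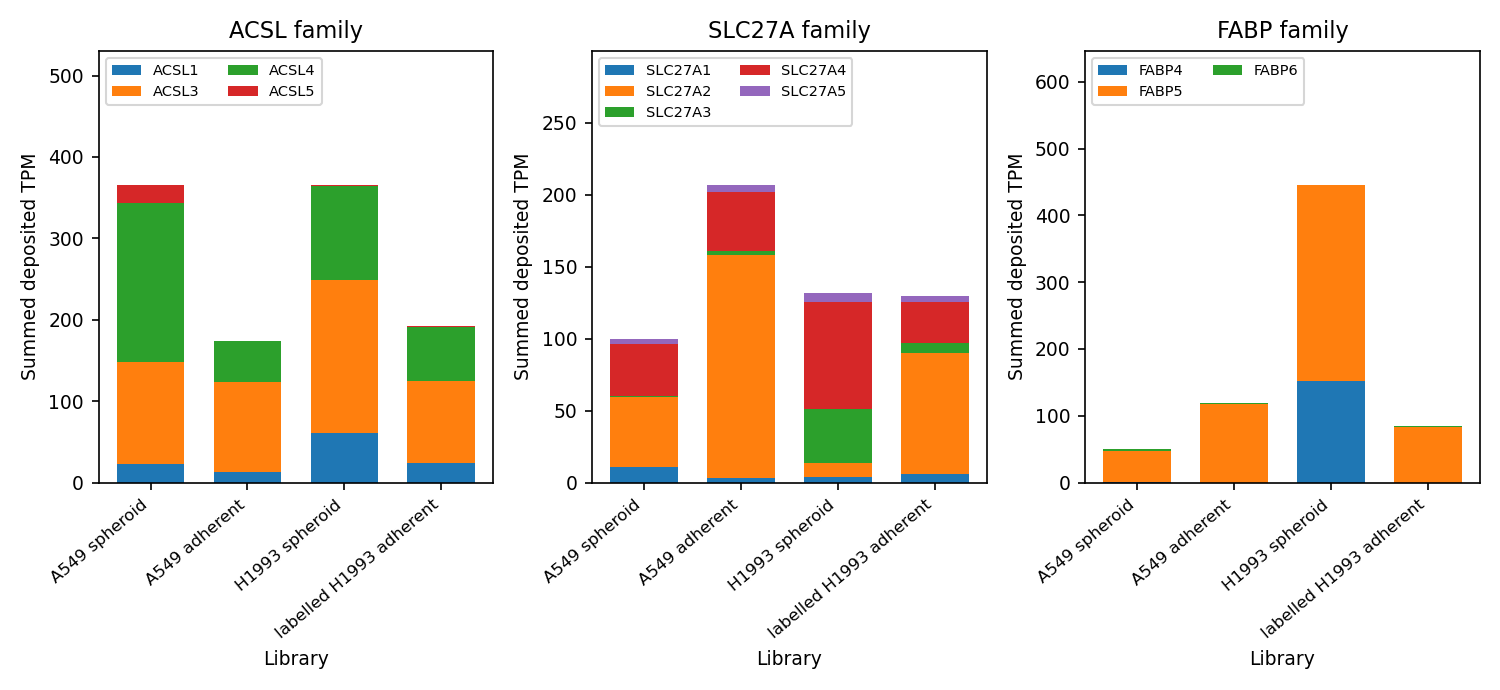
Summed deposited TPM of the ACSL, SLC27A and FABP genes in each library, stacked by gene (genes under 1 TPM in every library are not drawn; vertical scales differ between panels). ACSL4 is the largest block of its family in A549 spheroids alone, SLC27A2 the largest of its family in A549 spheroids, A549 adherent cells and the library labelled H1993 adherent, and FABP4 is visible in H1993 spheroids alone.

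SLC27A2, a very long-chain acyl-CoA synthetase and transport protein best known from liver and kidney (ENSG00000140284, chromosome 15, 50182196 to 50236395, plus strand), was lower in both spheroid libraries. Its level was 42.6 CPM in A549 spheroids (706 reads) against 125 CPM in A549 adherent cells, and 7.59 CPM in H1993 spheroids (116 reads) against 69.3 CPM in the library labelled H1993 adherent (1204 reads). Both spheroid levels were below both levels of the libraries labelled adherent. The log2 fold was -1.56 (-1.69 to -1.44) in A549 and -3.17 (-3.48 to -2.92) in H1993 as labelled. SLC27A2 shares 622 bases at its start with ATP8B4, a phospholipid flippase gene on the other strand. ATP8B4 had 473 reads in A549 spheroids against 89 in A549 adherent cells, and 69 in H1993 spheroids against 401 in the library labelled H1993 adherent. It lay the other way from SLC27A2 in A549 and the same way in H1993 as labelled. The SLC27A2 junction reads gave log2 ratios of -1.65 in A549 and -3.12 in H1993. The 50 kept neighbours of SLC27A2 had a median log2 fold of 0.25 in A549 and -0.47 in H1993, with 1 of 50 as low as SLC27A2 in A549 and 0 of 50 in H1993.

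SLC27A3, a family member with synthetase activity (ENSG00000143554, chromosome 1, 153774354 to 153780157, plus strand), stood higher in the H1993 libraries. It had 36 reads in A549 spheroids against 66 in A549 adherent cells, and 862 in H1993 spheroids against 196 in the library labelled H1993 adherent. Both H1993 libraries were above both A549 libraries. The log2 fold was -0.90 (-1.57 to -0.33) in A549, under 2-fold, and 2.31 (2.10 to 2.55) in H1993 as labelled. H1993 spheroids exceeded A549 spheroids by 4.62 (4.22 to 5.22), and the library labelled H1993 adherent exceeded A549 adherent cells by 1.42 (1.03 to 1.87). It was the only one of the 9 kept genes called between the libraries labelled adherent, where 6.95% of kept genes were called higher and 5.49% lower. In that comparison CD36 stood at -0.46 (-2.61 to 1.26) and ACSL5 at 0.06 (-1.07 to 1.21), so no difference was detectable at this depth. The neighbours of SLC27A3 on chromosome 1 were also higher in H1993 spheroids, with a median log2 fold of 1.26 over the library labelled H1993 adherent and of 1.24 over A549 spheroids. INTS3, a subunit of the Integrator complex on the same strand, shares 455 bases with SLC27A3, and it had 3541 reads in H1993 spheroids against 1591 in the library labelled H1993 adherent. Junction reads made up between 11.1% and 23.9% of SLC27A3 exonic reads, and alone they gave 206 in H1993 spheroids against 30 in the library labelled H1993 adherent, a log2 ratio of 2.96 (2.41 to 3.57).

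SLC27A4, a transport protein and synthetase of gut and skin (ENSG00000167114, chromosome 9, 128340646 to 128361470, plus strand), had 575 reads in A549 spheroids against 592 in A549 adherent cells. The H1993 counts were 994 in spheroids against 450 in the library labelled adherent. The log2 fold was -0.10 (-0.27 to 0.06) in A549 and 1.32 (1.17 to 1.49) in H1993 as labelled. Its 50 kept neighbours on chromosome 9 had a median of 0.84 in that H1993 comparison, and 9 of them were at least as high as SLC27A4. Between the libraries labelled adherent SLC27A4 stood at -0.52 (-0.71 to -0.35) and the same neighbours at a median of -0.48. For both SLC27A3 and SLC27A4, what part the shift shared by neighbouring genes has in the H1993 fold was not tested.

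The 6 SLC27A genes summed to 99.8 TPM in A549 spheroids against 207 in A549 adherent cells, and to 132 in H1993 spheroids against 130 in the library labelled H1993 adherent. SLC27A2 took 48.6% in A549 spheroids against 74.8% in A549 adherent cells. In the H1993 pair it took 7.36% in spheroids against 65.0% in the library labelled adherent, while SLC27A4 took 56.8% in spheroids against 21.9% and SLC27A3 28.0% in spheroids against 5.42%. The H1993 sum was thus nearly equal in the 2 libraries although the leading gene differed.

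**Figure D3:**
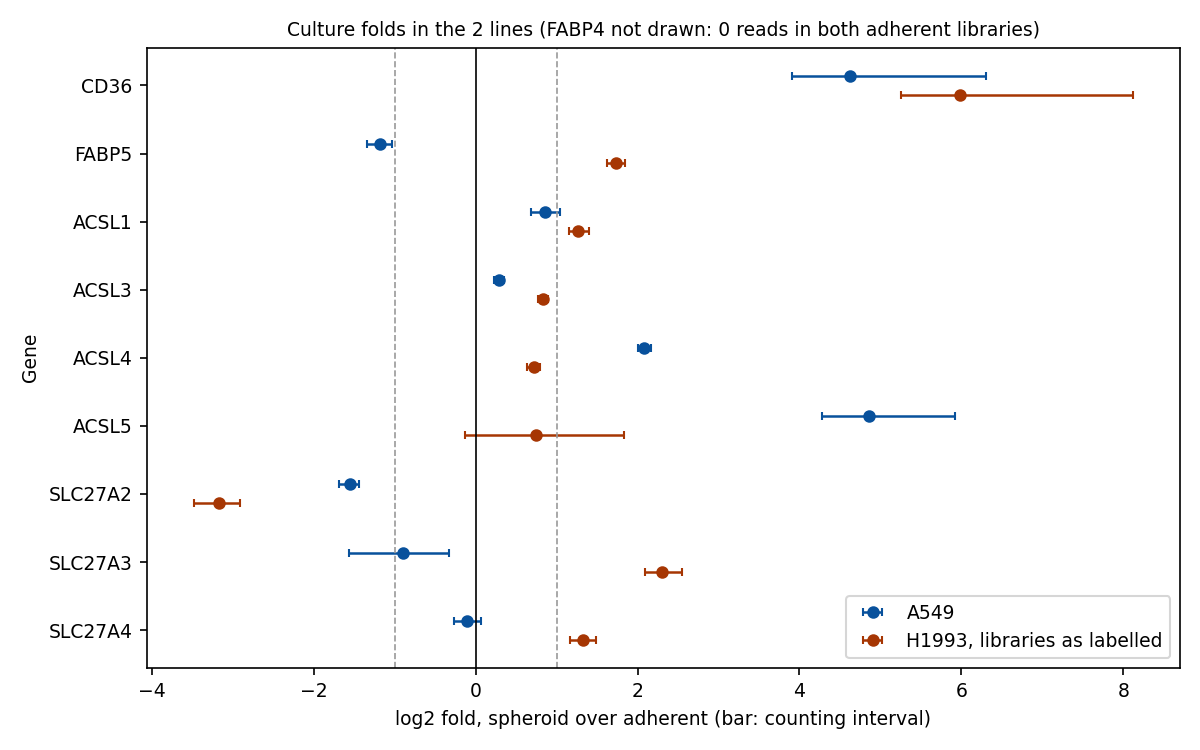
Log2 fold of spheroid over adherent for the 9 kept genes in A549 (blue) and in H1993 as labelled (brown); bars are 95% counting intervals and dashed lines mark 2-fold. CD36 lies right of the upper dashed line and SLC27A2 left of the lower one in A549 and in H1993 as labelled, and FABP5 lies beyond opposite lines.

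**Figure D4:**
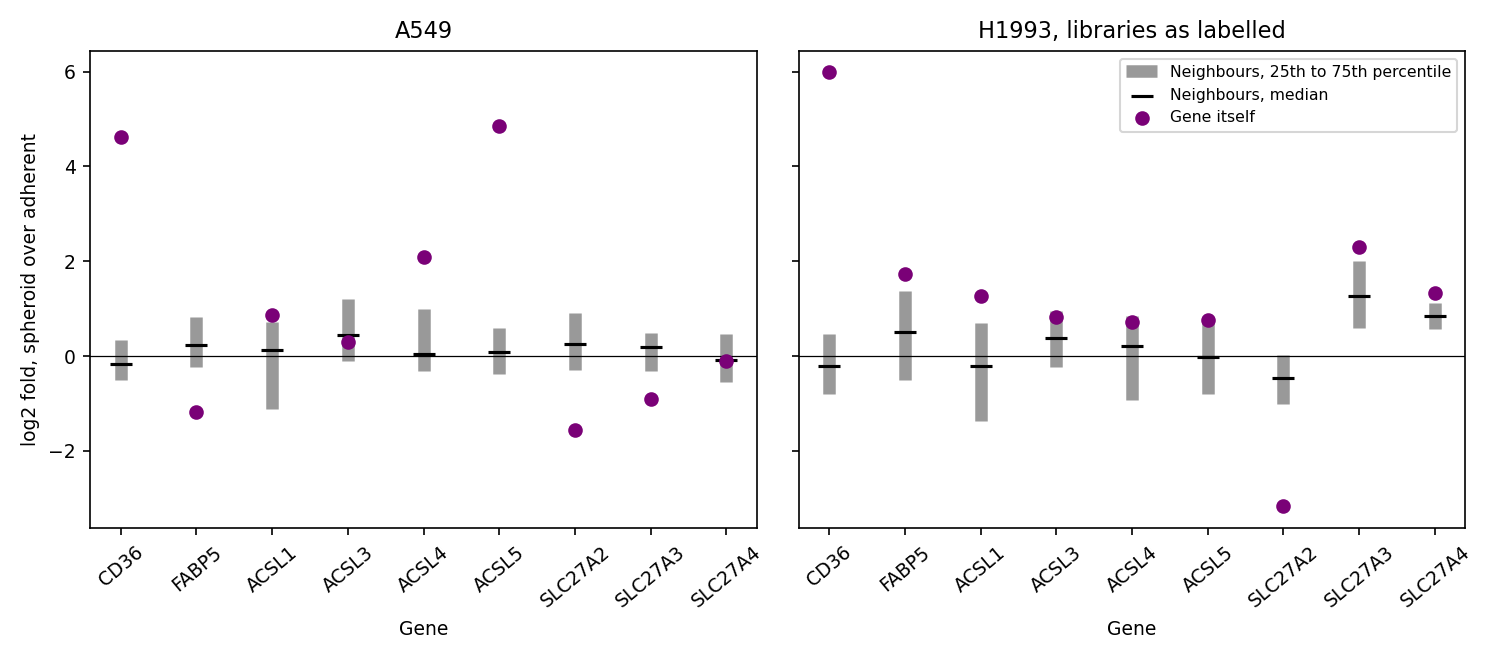
Log2 fold of spheroid over adherent for each kept gene (purple point) beside the median (black dash) and the 25th to 75th percentile range (grey bar) of up to 50 neighbouring kept genes, in A549 and in H1993 as labelled. CD36 lies above all its neighbours in both panels, while the neighbours of SLC27A3 and SLC27A4 are themselves above 0 in the H1993 panel.

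Between the 2 spheroid libraries, 3 of the 9 kept genes were called higher in H1993 (FABP5, ACSL1 and SLC27A3) and 2 lower (ACSL5 and SLC27A2), against 18.0% and 19.1% of all kept genes. ACSL4 was lower in H1993 spheroids by a log2 fold of -0.93 (-0.99 to -0.87), under 2-fold. SLC27A2 stood at -2.47 (-2.78 to -2.20), with its 50 neighbours at a median of -0.75. With FABP4 included, the summed TPM of the 10 genes was 942 in H1993 spheroids and 503 in A549 spheroids. Most of that gap came from the binding proteins. FABP5 had 294 TPM in H1993 spheroids against 47.8 in A549 spheroids, and FABP4 152 against 0.138. By TPM, ACSL4, ACSL5 and SLC27A2 were lower in H1993 spheroids. For the libraries labelled adherent the sum was 395 TPM in the H1993 one and 490 TPM in A549 cells.

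A test over both lines, with culture and line as terms, has 1 residual degree of freedom. For culture, edgeR's quasi-likelihood test called 0% of the 15273 kept genes at an adjusted p of 0.05 (smallest adjusted p 0.264), while 1258 had an unadjusted p below that value and DESeq2 called 591. CD36, higher in spheroids in A549 and in H1993 as labelled, had an edgeR log2 estimate of 5.68 with an adjusted p of 0.281. SLC27A2, lower in both pairs, had an edgeR log2 estimate of -2.37 with an adjusted p of 0.401. With DESeq2 both genes passed, at adjusted p-values of 8.33e-09 and 0.0107. ACSL4 had an edgeR log2 estimate of 1.40 with an adjusted p of 0.575. For line, edgeR again called 0% (smallest adjusted p 0.175, with 784 genes at an unadjusted p under 0.05), and DESeq2 called 379. SLC27A3 had an edgeR log2 estimate of 3.06, H1993 over A549 in both cultures, with an adjusted p of 0.756, and it was the only one of the 9 that DESeq2 called for line, at an adjusted p of 0.00914.

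Other genes of uptake and activation gave a wider view. The lists were fixed with earlier results of these data known, and each count stands beside the shares of all kept genes given above. Of 15 further acyl-CoA synthetases, 10 were kept, with median log2 folds of 0.48 in A549 and 0.34 in H1993 as labelled, where all kept genes had medians of -0.0039 and 0. In A549 3 were called higher and 0 lower, among them ACSS2, which makes acetyl-CoA from acetate, with 1961 reads in spheroids against 406 in adherent cells (log2 fold 2.20). SLC27A1, the muscle and fat transport protein, stood at 1.75 and AACS, which activates acetoacetate, at 1.13. In H1993 as labelled 1 was called higher and 3 lower. ACSS2 was again the higher one, with 3659 reads in spheroids against 362 in the library labelled adherent (3.51), and ACSM3, a medium-chain synthetase, and ACSS1, the mitochondrial acetate enzyme, were lower at -2.73 and -1.10. The other lower one was ACSS3, with 3 reads against 36.

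Of 16 genes of lipid entry, 14 were kept, with medians of 0.14 in A549 and -0.19 in H1993 as labelled. In A549 4 were called higher and 2 lower. LRP1, an endocytic lipoprotein receptor, had 9179 reads in spheroids against 1637 in adherent cells (log2 fold 2.42), and MFSD2A, which imports lysophosphatidylcholine that carries omega-3 fatty acids, stood at 2.39. LIPG was also called higher, at 1.55. CAV1 and CAVIN1, the coat proteins of caveolae, were lower at -1.43 and -1.56. In H1993 as labelled 1 was called higher and 2 lower. LIPG, endothelial lipase, which frees fatty acids from lipoproteins, had 1887 reads in spheroids against 51 in the library labelled adherent (5.34, 4.99 to 5.82), and CAVIN1 and SCARB1, the receptor for high-density lipoprotein and a relative of CD36, stood at -2.86 and -1.07. LPL, the lipase that releases fatty acids at vessel walls, had at most 2 reads in any library.

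Of 7 acyl-CoA binding proteins 6 were kept and 0 were called in either line, with medians of 0.31 in A549 and -0.28 in H1993 as labelled. DBI, the main acyl-CoA carrier, had 3184 reads in A549 spheroids against 2555 in A549 adherent cells, and 2180 in H1993 spheroids against 2435 in the library labelled H1993 adherent. The thioesterases, which undo activation, had 9 of 11 genes kept, with medians of 0.0023 in A549 and 0.14 in H1993 as labelled. In A549 0 of them were called, and in H1993 as labelled ACOT11 (3.23) and ACOT8 (1.30) were called higher and ACOT2 (-2.36) and ACOT9 (-1.18) lower.

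Fatty acids are ligands of the PPAR receptors. PPARA, the receptor of oxidative tissues, had 638 reads in A549 spheroids against 172 in A549 adherent cells, and 505 in H1993 spheroids against 273 in the library labelled H1993 adherent, with log2 folds of 1.82 (1.58 to 2.08) and 1.07 (0.86 to 1.29). PPARD, the widely expressed receptor, had 190 reads in A549 spheroids against 186 in A549 adherent cells, and 789 in H1993 spheroids against 282 in the library labelled H1993 adherent. PPARG, the receptor of fat cells, had 550 reads in A549 spheroids against 653 in A549 adherent cells, and 866 in H1993 spheroids against 816 in the library labelled H1993 adherent. Of the 7 receptors and partners, all kept, 1 was called higher in A549, and 4 higher and 1 lower in H1993 as labelled, with medians of 0.16 and 1.07. The H1993 ones beside PPARA and PPARD were the partner RXRA (1.68), and the coactivators PPARGC1B (1.82) and PPARGC1A (-1.11).

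Of 10 genes that promote or oppose the membrane peroxidation in which ACSL4 acts, 8 were kept, with medians of -0.45 in A549 and -0.43 in H1993 as labelled. The list mixes both kinds, so its median has no single direction of meaning. In A549 TFRC, the transferrin receptor, was the only one called, at -1.02. In H1993 as labelled ALOX5, a lipoxygenase, was higher at 2.36, and TFRC (-2.05), the ferritin chain FTH1 (-1.60) and the cystine importer SLC7A11 (-1.17) were lower. GPX4, which repairs lipid peroxides, had 2827 reads in A549 spheroids against 1968 in A549 adherent cells.

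Read classes in the tables gave a further view of the same transcripts. Intronic reads made up 5.32% of ACSL4 gene reads in A549 spheroids (95% Clopper-Pearson interval 4.80% to 5.87%), against 9.06% in A549 adherent cells (7.71% to 10.6%), while the whole libraries stood at 8.43% in A549 spheroids and 10.1% in A549 adherent cells. For SLC27A2 the share was 2.22% in A549 spheroids (1.27% to 3.57%) and 5.72% in A549 adherent cells (4.77% to 6.80%). For ACSL3 it was 5.97% in A549 spheroids (5.33% to 6.66%) and 8.40% in A549 adherent cells (7.56% to 9.30%). ACSL1 lay the other way, at 11.6% (9.52% to 14.0%) in A549 spheroids and 8.79% (6.27% to 11.9%) in A549 adherent cells, with intervals that overlap. SLC27A4 did so too, at 11.5% (9.18% to 14.2%) in A549 spheroids and 7.93% (5.96% to 10.3%) in A549 adherent cells. In H1993 spheroids the ACSL4 share was 7.30% (6.44% to 8.22%), against 10.3% in the library labelled H1993 adherent (9.16% to 11.6%), while the whole libraries stood at 11.6% in H1993 spheroids and 10.7% in the one labelled adherent.

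The kept genes closest to 4 of these genes in pattern were named from the root mean square distance of centred log2 CPM over the 4 libraries, among 12321 genes with at least 100 reads in 1 library. For CD36 they were CAPN8, a calpain protease (0.46), IL1B, interleukin-1 beta (0.46), and TMEM45B (0.55). For ACSL5 they were CHST6, a keratan sulfate sulfotransferase (0.24), SYT13, a synaptotagmin (0.34), and SERPINA5, a protease inhibitor (0.45). SLC27A2 was nearest to MAP7D2, a microtubule-associated protein (0.080), and ACSL1 to COL1A1, a collagen chain (0.040). Within 0.25 lay 0 genes for CD36 and 1 for ACSL5, against 98 for ACSL1 and 15 for SLC27A2. A fixed distance leaves fewer matches for a gene with large folds or few reads. These counts therefore do not set CD36 and ACSL5 apart. With 4 libraries such closeness is a description only.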

How the data were processed

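Each sample was 1 library of total RNA made with a stranded mRNA kit and few PCR cycles, per the labels' protocols. Per the submitters' processing notes the build was hg38. Which aligner, counter and annotation were used is not given in the sources used here. Per gene the authors deposited whole-number read counts (exon, intron and junction, total and unique) and TPM scaled by exon length. The spans of all 10 genes are the same in GENCODE 29.

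Total exon counts were filtered with edgeR's filterByExpr (15273 of 43622 genes) and scaled by TMM. A prior count of 2 entered each log2 fold, and its interval is the exact Clopper-Pearson one of the 2 counts. Intervals and floors cover counting error only, since each group is 1 library. PCR copies cannot be told from separate molecules, so the intervals may be too narrow even for counting error. Nothing says that libraries came from separate cultures. With 1 library per line and culture, the residual spread behind the p-values is the difference between the 2 lines in their culture folds. It includes the library labelled H1993 adherent, and technical spread cannot be told apart from it. The fits also share spread across genes. Over both lines, edgeR 4.0.16 (glmQLFit, glmQLFTest, Benjamini-Hochberg) was fitted with line and culture as terms, and DESeq2 1.42.0 was the alternative. Scripts were tested on simulated data.

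The genes and lists were chosen with earlier results of these data known. From each further list, up to 4 genes with at least 100 reads and a call were named by size of fold, and the PPAR receptors always. Flanking and overlapping genes, FABP6, ACSL6, ACSS3, LPL, DBI, GPX4 and LIPG in A549 were named after their values were seen. Of the lipid entry list 1 gene is not reported here by name. A planned comparison of protein sequences was not analysed here. The results were recomputed with DESeq2 size factors, with library size alone, with no filter, with a prior count of 0.5, with unique reads, TPM with a pseudocount of 0.1, a fit without mitochondrial genes, fits without the other term, and a fit without the library labelled H1993 adherent. Scaling from the A549 pair alone, and without the library labelled H1993 adherent, were added after seeing the data.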

Additional observations from a re-analysis of the deposited data

Results flagged for a closer look

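FABP5 pointed opposite ways under the same contrast in the 2 lines, with a log2 fold of spheroid over adherent of -1.18 in A549 and 1.74 in the H1993 libraries as labelled. With 1 library per group the difference between these folds was not tested. It rests on the library labelled H1993 adherent, which stood close to A549 adherent cells (886 FABP5 reads in that library and 1121 in A549 adherent cells).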

How the results depend on the processing

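All called member folds kept their sign under every alternative run. With no filter on low counts FABP4 was also called higher in H1993 spheroids, making 6 genes against the library labelled H1993 adherent and 4 against A549 spheroids. It was also the gene added, to make 4 against A549 spheroids, where filter and scaling were set without the library labelled H1993 adherent. With deposited TPM, H1993 spheroids exceeded A549 spheroids in 5 genes, CD36 and SLC27A4 being added. That scale puts the median of all kept genes at 0.17. With library size alone SLC27A3 was also called lower in A549 spheroids, where the median of all kept genes moved to -0.11. For culture, the number of genes at an adjusted p under 0.05 was 591 with DESeq2 and 173 in edgeR with no filter on low counts, and 2 of the 10 genes were among them in each. With DESeq2 these were CD36 and SLC27A2, and with no filter CD36 (adjusted p 0.00802) and FABP4, while SLC27A2 had an adjusted p of 0.0846. For line it was 379 and 190, with 1 of the 10 in each, SLC27A3 with DESeq2 and FABP4 with no filter. The cause of these differences in number was not tested. Both FABP4 calls rest on H1993 spheroids, with 905 reads against at most 1 in any other library. A fit with terms for culture and line cannot assign a value from 1 library to either. Without the library labelled H1993 adherent and without a term for line, 0 genes were called for culture. Leaving out any library from the fit with both terms leaves no residual degree of freedom, so it is a value with no test. The labels carry no replicate numbers, and the fit with both terms pairs the libraries by line. Without the term for the other factor, edgeR called 0 genes for culture and 0 for line. Low depth limits CD36, ACSL5 and FABP4 in the adherent libraries, where they had at most 16 reads.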
